A study of Homo sapiens with 4 samples.

Results

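Keratins were examined in PC-3-BM, a bone-selected derivative of the human prostate cancer cell line PC-3, set against PC-3 itself. The genes listed were KRT75, KRT8, KRT18, KRT7, KRT19, KRT80, KRT5, KRT14, KRT15 and KRT17. A gene was measured where a probe set carried its symbol alone, and where it had several such probe sets the one with the highest mean over the 4 arrays was selected by that mean. This gave 9 of the 10 listed genes, out of 18417 genes with a probe set of their own among 33297 probe sets. KRT17 had no such probe set in the annotation used here and was not analysed. The 10 genes were listed with earlier results of these arrays known. KRT75 and KRT8 were chosen by their difference between the lines, so their values are given as a description without a test. The other members carry the p-value of a fit of all probe sets in limma, which shares the estimate of spread between genes, adjusted over all 33297 of them and called below 0.05. Differences are PC-3-BM minus PC-3 on the log2 scale.

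PC-3-BM, labelled as highly metastatic, was recovered by the study from bones of nude mice after repeated rounds of intracardiac injection of PC-3 cells, expansion in culture and sorting for green fluorescent protein, and it is 1 derivative, which the methods call a clone. PC-3, labelled as having poor metastatic potential, is the parental line, and both lines carried a luciferase and green fluorescent protein construct. Each line was measured on 2 arrays of the Affymetrix Human Gene ST type, 1 sample to an array, and the values are log2 intensities after robust multichip averaging (RMA), which normalises the arrays together. The labels do not say whether arrays 1 and 2 came from separate cultures, so p-values measure only the spread between these arrays. By the labels the cells grew in mice and by the methods in dishes, so their state at RNA extraction was not settled.

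Keratins are the intermediate filament proteins of epithelial cells. A filament needs a type I (acidic) and a type II (basic) keratin, which pair as KRT18 with KRT8 in simple epithelia such as the luminal layer of the prostate and as KRT14 with KRT5 in basal layers. Filaments are tied to desmosomes and hemidesmosomes at the cell edge. All type II genes and KRT18 lie in 1 cluster on chromosome 12 and the other type I genes in a cluster on chromosome 17.

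Of the 47 keratins measured, those with the largest differences were KRT75, a type II keratin known from the companion layer of the hair follicle, and KRT8, the type II keratin of simple epithelia. KRT75 had log2 values of 7.02 and 6.99 on the PC-3-BM arrays, against 10.25 and 10.30 on the PC-3 arrays. Its PC-3-BM values lay close to the median of all values (6.69), and the difference of −3.27 (SE 0.07) made its level 9.63-fold lower in PC-3-BM. KRT8 had values of 8.83 and 9.05 in PC-3-BM, against 11.02 and 10.93 in PC-3, a difference of −2.03 (SE 0.10) or 4.09-fold lower. For both genes the arrays of the lines were far apart, and KRT8 stayed well above the median of all values in PC-3-BM. In such bulk RNA, fewer cells expressing a keratin and less RNA per cell cannot be told apart. Of all 33297 probe sets, 17 or 0.0511% passed the thresholds chosen by the study, a log2 difference of more than 2 either way with an adjusted p under 0.001, when these were applied to the limma fit of the deposited values made here, and nothing is read from them about KRT75 or KRT8.

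KRT18, the partner of KRT8, fell by a smaller amount. It had log2 values of 10.31 and 10.43 in PC-3-BM, against 10.83 and 10.71 in PC-3 (difference −0.40, SE 0.09, limma, adjusted p = 0.0322). A second probe set of KRT18 alone had 9.46 and 9.70 in PC-3-BM, against 10.17 and 10.15 in PC-3 (difference −0.58, SE 0.10, limma, adjusted p = 0.0189). A further probe set, which is also annotated to a microRNA gene and was not used for KRT18, differed by −0.52 (SE 0.09). KRT18 and KRT8 have near-identical processed copies in the genome, with which their probe sets could share signal. Within arrays, the log2 difference of KRT8 to KRT18 was −1.48 and −1.38 in PC-3-BM and 0.19 and 0.22 in PC-3. These differences are between probe sets and have no meaning as levels, but their change between the lines was −1.63. KRT8 was chosen by its own difference, so a test of this change is no independent support. An exact two-sided permutation test over 4 arrays cannot go below 0.333, which is the value it gave here and for the pair of KRT5 and KRT14, whose within-array difference moved by 0.13 (2 pairs compared, both p = 0.333 also after adjustment).

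Of the other simple epithelial keratins, KRT7 and KRT19 fell. KRT7, a type II keratin of glandular and duct linings, had log2 values of 6.82 and 6.76 in PC-3-BM, against 7.36 and 7.49 in PC-3 (difference −0.63, SE 0.08, limma, adjusted p = 0.00853). KRT19, a type I keratin that lacks most of the tail domain, had 11.60 and 11.47 in PC-3-BM, against 11.89 and 11.84 in PC-3 (difference −0.33, SE 0.08, limma, adjusted p = 0.0444). KRT19 was bright in both lines, and its 2 groups of arrays were close but did not overlap. KRT80, a type II keratin of differentiating epithelia, had 5.86 and 5.95 in PC-3-BM and 6.05 and 6.31 in PC-3, and the difference of −0.27 (95% interval −0.55 to 0.01) did not pass (limma, adjusted p = 0.152).

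The basal keratins showed small differences. KRT14 had log2 values of 6.75 and 6.74 in PC-3-BM, against 7.19 and 7.08 in PC-3, and it fell (difference −0.39, SE 0.08, limma, adjusted p = 0.0236). Its partner KRT5 had 5.25 and 5.34 in PC-3-BM, against 5.59 and 5.54 in PC-3 (difference −0.27, 95% interval −0.46 to −0.08, limma, adjusted p = 0.0617). KRT15, a type I keratin of basal cells, had 6.59 and 6.48 in PC-3-BM, against 6.78 and 6.75 in PC-3 (difference −0.23, 95% interval −0.43 to −0.04, limma, adjusted p = 0.0937). KRT5 lay near the lower quartile of all values (5.02) in both lines. The array gives no detection call, and the sizes of differences at such values are uncertain.

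**Figure D1:**
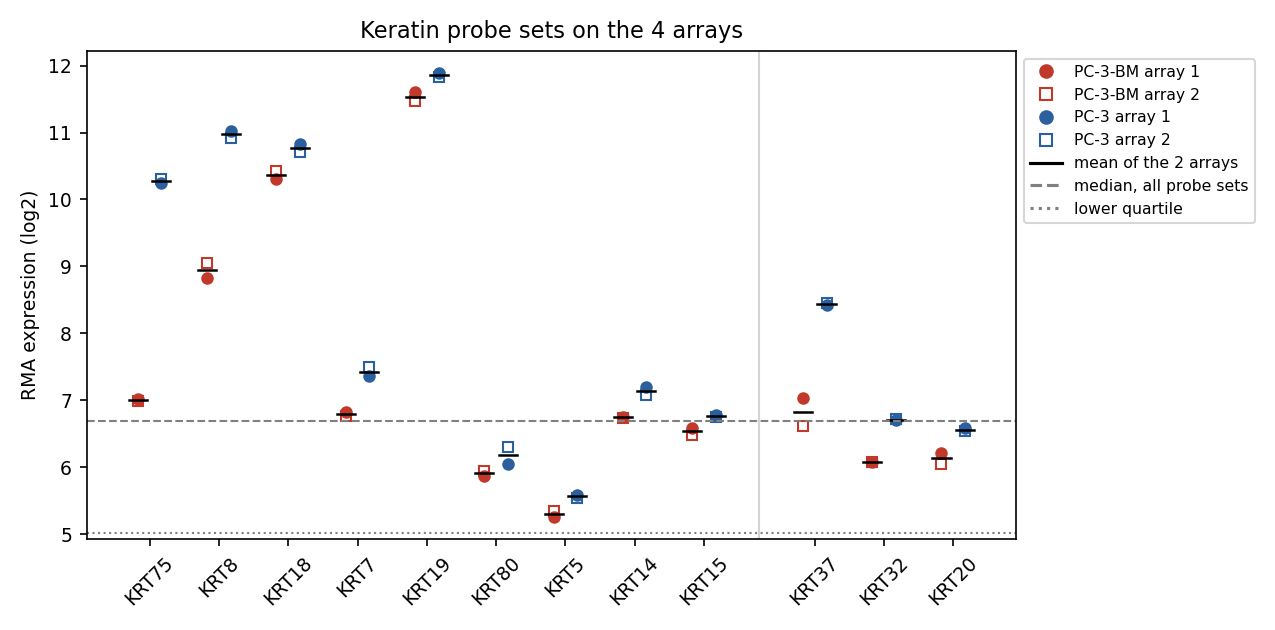
RMA expression (log2, vertical axis) of the 9 measured members and of KRT37, KRT32 and KRT20 on each array, with PC-3-BM in red left of PC-3 in blue, circles and squares for arrays 1 and 2, and black bars for means. Dashed and dotted lines are the median (6.69) and the lower quartile (5.02) of all values, and the PC-3-BM values lie below the PC-3 values for each of these genes, with differences from −3.27 for KRT75 to −0.23 for KRT15.

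Besides KRT75 and KRT8, 4 of the 7 measured members fell (KRT18, KRT7, KRT19 and KRT14) and none rose. On the array as a whole 11.6% of probe sets were lower and 11.6% higher in PC-3-BM, 23.2% together. Both PC-3-BM arrays lay below both PC-3 arrays for all 7, as they did for 34.3% of all probe sets. Their median difference was −0.33, against −0.02 over all probe sets. These calls rest on both arrays of each line. KRT18, KRT19 and KRT14 lost theirs whichever array was left out, although their differences stayed negative (highest limma adjusted p = 0.145, 0.178 and 0.114), and KRT7 lost its call without PC-3 array 2 (limma, adjusted p = 0.0588).

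The wider family was described by nomenclature, with 47 measured genes of 54 keratins. Counting KRT75 and KRT8, which were chosen by their difference, 9 were lower, none rose and 38 did not pass. Without KRT75 and KRT8, 7 of 45 fell, or 15.6%. This was close to the 14.7% called lower among the 19460 probe sets with 1 gene symbol, the kind by which keratins were measured, and stood beside 11.6% of all probe sets. The family median was −0.15 (−0.16 in type II and −0.15 in type I), and that of the probe sets with 1 symbol was −0.04. The 9951 probe sets with a mean from 5 to 7, where most keratins lie, had a median of −0.06 and 8.16% called lower. The called keratins KRT18, KRT7, KRT19 and KRT37 had means over 7, where 19.1% of 15143 probe sets were called lower. The share of 8.16% is therefore no background for the 15.6% of keratins at all levels. The 38 keratins without a call had differences from −0.34 to 0.18, and 7 keratins lay below the lower quartile in both lines. Leaving out single arrays, 4 keratins were called lower without PC-3 array 2, and 5 on leaving out each of the other 3. KRT75 and KRT8 are in each of these counts.

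**Figure D2:**
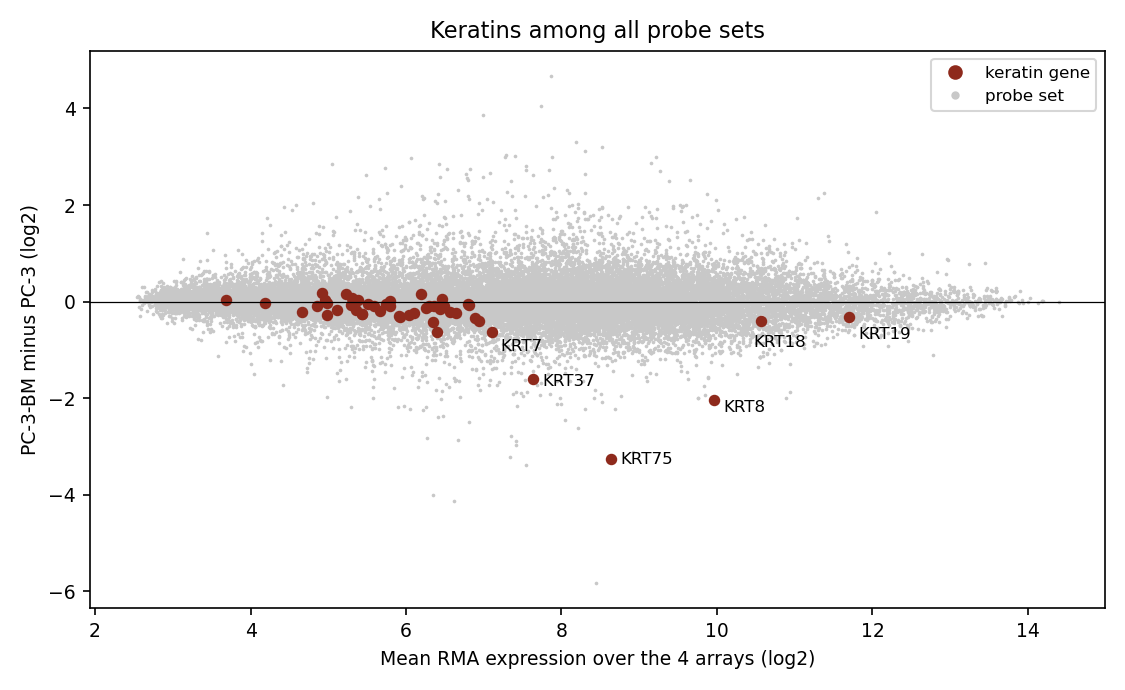
Difference between PC-3-BM and PC-3 (log2, vertical axis) against mean RMA expression over the 4 arrays (log2, horizontal axis) for all 33297 probe sets (grey) and for the 47 measured keratin genes (dark red). KRT75 (−3.27), KRT8 (−2.03) and KRT37 (−1.61) lie apart from the other keratins, which range from −0.63 to 0.18.

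Among keratins outside the list, KRT37 stood out. This type I keratin of hair had log2 values of 7.04 and 6.61 in PC-3-BM, against 8.42 and 8.45 in PC-3, and fell by 1.61 (SE 0.15, limma, adjusted p = 0.00437), a level 3.04-fold lower. KRT32, a type I keratin of the hair cuticle, had 6.08 on both PC-3-BM arrays, against 6.70 and 6.72 in PC-3 (difference −0.63, SE 0.07, limma, adjusted p = 0.00531). KRT20, a type I keratin known from intestine and urothelium, had 6.22 and 6.05 in PC-3-BM, against 6.59 and 6.53 in PC-3 (difference −0.43, SE 0.09, limma, adjusted p = 0.0273). The arrays of the lines did not overlap for any of these genes. KRT37 and KRT32 kept their calls whichever array was left out, and KRT20 lost it in each case (highest limma adjusted p = 0.132). Of 14 measured hair keratins KRT37 and KRT32 were the only ones called, and the median was −0.13. This share of 14.3% was near the 14.7% called lower among probe sets with 1 symbol.

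KRT75 and KRT37 each lay between measured neighbours that did not pass the test. On chromosome 12, the nearest measured neighbours of KRT75 were KRT84 (−0.21) and KRT5 (−0.27), and KRT8 stood between KRT78 (0.04) and KRT18 (−0.40). The gene order was taken from RefSeq (assembly GRCh38.p14), and 6 keratins of this cluster between KRT7 and KRT5 were not analysed. On chromosome 17, KRT37 lay between KRT31 (−0.31) and KRT38 (−0.33), with KRT32 (−0.63) after KRT38. The 5 nearest measured genes on each side of the chromosome 12 cluster differed by −0.33 to 0.41, with 1 lower (SPRYD3) and 2 higher (TNS2 and CSAD), and those of the chromosome 17 cluster by −0.27 to 0.23, with none called. SPRYD3, TNS2 and CSAD stand beyond KRT18.

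**Figure D3:**
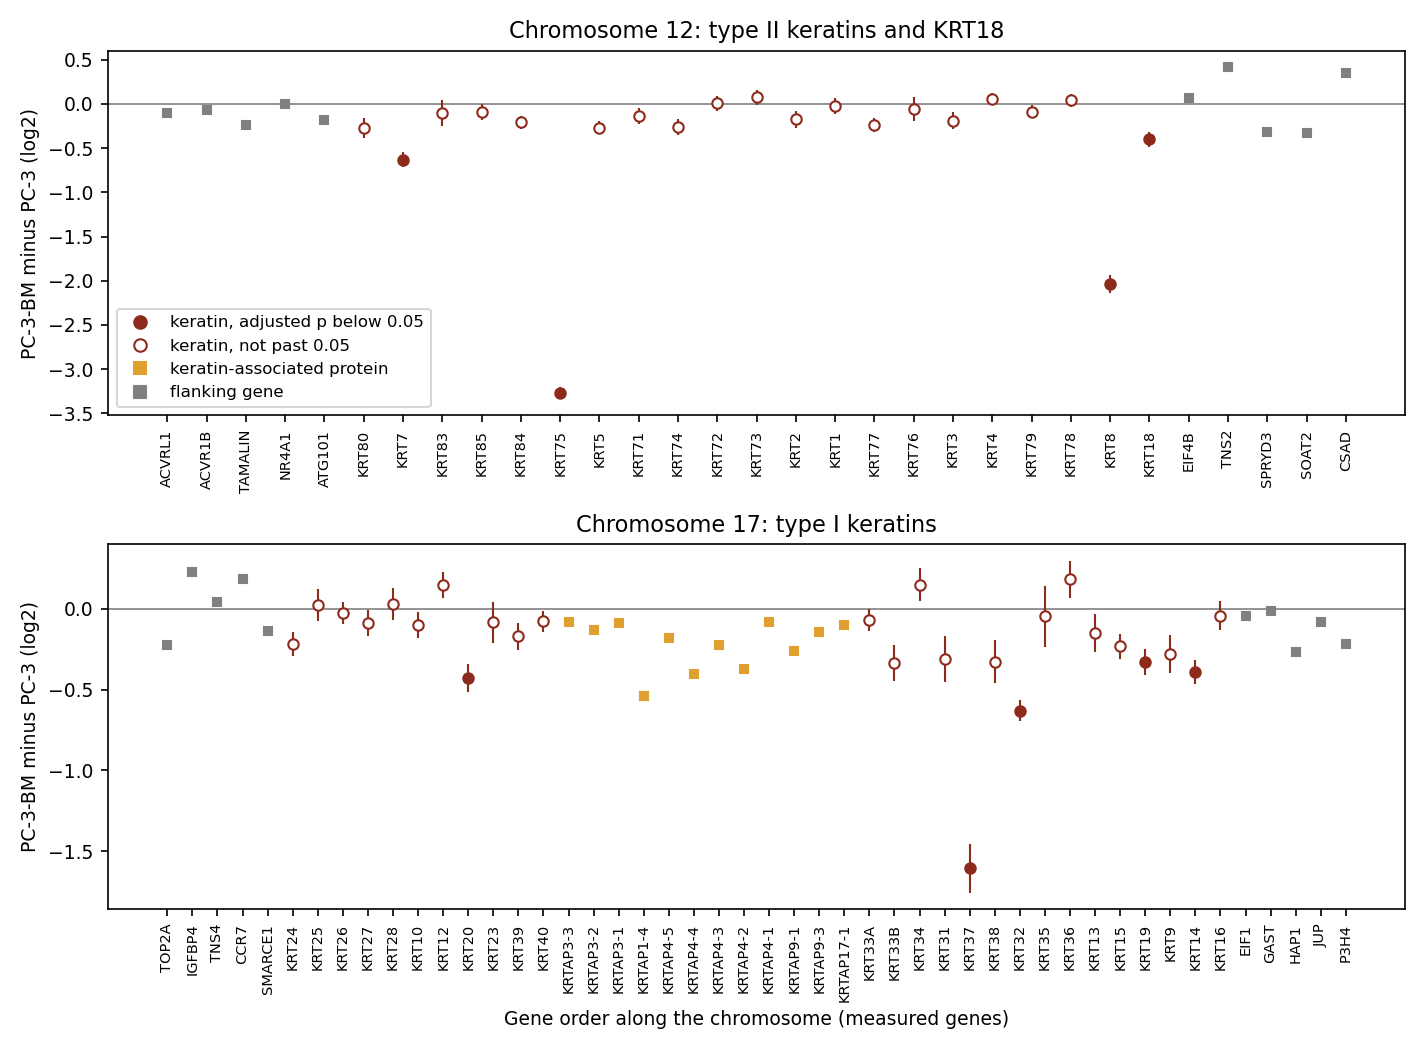
Difference between PC-3-BM and PC-3 (log2, vertical axis) of measured genes in their order along chromosomes 12 and 17 (horizontal axis). Circles are keratins with SE bars, filled at an adjusted p below 0.05, orange squares keratin-associated proteins and grey squares the 5 flanking genes on each side. KRT75 and KRT8 were chosen by their difference, so their fill is no test. KRT75, KRT8 and KRT37 lie at −3.27, −2.03 and −1.61, each below its measured neighbours, which range from −0.40 (KRT18) to 0.04 (KRT78).

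The start regions of KRT75, KRT37 and KRT8, the 3 keratins with the largest differences, and of KRT5, which lies near KRT75 and did not pass the test, are shown to compare their upstream sequence. They run from 250 bases before to 50 after a start site, 5′ to 3′, from the RefSeq table for GRCh38.p14. Capitals mark the letters ATAAAA, one form of the box at which the transcription machinery assembles.
KRT75 (chr12:52434322-52434621, minus strand): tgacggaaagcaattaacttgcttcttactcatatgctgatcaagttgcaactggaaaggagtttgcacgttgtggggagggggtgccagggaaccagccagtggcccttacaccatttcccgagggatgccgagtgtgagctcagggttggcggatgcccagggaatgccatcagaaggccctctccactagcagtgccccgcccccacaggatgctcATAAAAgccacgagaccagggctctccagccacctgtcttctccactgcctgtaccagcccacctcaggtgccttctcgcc
KRT37 (chr17:41424536-41424835, minus strand): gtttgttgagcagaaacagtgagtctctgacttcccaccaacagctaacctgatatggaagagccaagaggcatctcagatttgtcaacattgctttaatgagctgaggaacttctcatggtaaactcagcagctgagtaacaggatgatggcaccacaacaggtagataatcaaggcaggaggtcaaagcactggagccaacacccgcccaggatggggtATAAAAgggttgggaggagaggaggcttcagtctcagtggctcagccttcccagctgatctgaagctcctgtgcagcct
KRT5 (chr12:52520345-52520644, minus strand): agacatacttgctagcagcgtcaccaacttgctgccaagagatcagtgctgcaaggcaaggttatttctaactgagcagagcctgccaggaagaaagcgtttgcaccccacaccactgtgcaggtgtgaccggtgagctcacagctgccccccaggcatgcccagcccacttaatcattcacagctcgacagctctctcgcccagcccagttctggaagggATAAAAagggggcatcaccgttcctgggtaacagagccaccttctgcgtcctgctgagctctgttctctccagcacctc
KRT8 (chr12:52926420-52926719, minus strand): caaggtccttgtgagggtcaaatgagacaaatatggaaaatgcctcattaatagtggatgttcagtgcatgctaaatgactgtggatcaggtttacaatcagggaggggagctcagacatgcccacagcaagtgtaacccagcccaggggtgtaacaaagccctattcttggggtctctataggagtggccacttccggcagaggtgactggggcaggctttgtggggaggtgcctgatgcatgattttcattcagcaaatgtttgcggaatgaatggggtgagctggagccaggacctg
The box began 31 bases before the start in KRT75 and 29 bases before it in KRT37 and KRT5. Its part in the differences was not tested. The letters ATAAAA were absent from the KRT8 window as read. This window lies inside the annotated KRT8 gene (chr12:52897191-52949860), which extends both upstream and downstream of it. Starts on either side were not searched, and which start these cells use was not tested. Of 34 keratin genes with such a window, 14 or 41.2% had ATAAAA on the sense strand beginning 40 to 20 bases before a start, against 2.23% of all 27305 genes in the table. On either strand and anywhere in the window the shares were 67.6% of keratin genes and 19.0% of all genes. The letters GGGCGG, a GC box, on either strand were in 17.6% of keratin genes, KRT75 and KRT37 among them, and in 48.3% of all genes. These matches are descriptions of sequence only.

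Among proteins that anchor or bind keratin filaments, changes went both ways. Of 15 measured genes 5 fell (33.3%) and 2 rose (13.3%), with a median of −0.22, where probe sets with 1 symbol had 14.7% lower and 14.6% higher. ITGB4, the hemidesmosomal integrin subunit to which keratins are linked through plectin, averaged 6.98 in PC-3-BM and 8.97 in PC-3 (difference −1.99, SE 0.10, limma, adjusted p = 0.0016). Its partner subunit ITGA6 rose by 0.69 (SE 0.07), and DST, which encodes the hemidesmosomal linker BPAG1 and also isoforms of muscle and nerve, averaged 10.80 in PC-3-BM and 9.37 in PC-3 (difference 1.43, SE 0.07, limma, adjusted p = 0.00149). FAM83H, an organiser of keratin filaments, fell by 0.85 (SE 0.08) and the desmosomal plaque protein PKP1 fell by 0.76 (SE 0.07). Periplakin (PPL) fell by 0.34 (SE 0.07) and plectin (PLEC) fell by 0.29 (SE 0.07), and these 2 calls were lost whichever array was left out, which gave 3 lowered genes in place of 5.

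Of 16 other intermediate filament genes 3 fell (18.8%) and 1 rose (6.25%), with a median of −0.12. The 4 calls are a share near the 23.2% called over all probe sets. Nestin (NES) fell by 0.85 (SE 0.09), the lens filament gene BFSP1 fell by 0.56 (SE 0.07), and peripherin (PRPH) fell by 0.30 (SE 0.07). Lamin A/C (LMNA) rose by 0.57 (SE 0.07). Vimentin (VIM), the filament protein of mesenchymal cells, had log2 values of 11.96 and 11.95 in PC-3-BM, against 11.88 and 11.87 in PC-3 (difference 0.08, SE 0.07, limma, adjusted p = 0.465). BFSP1 lay below the median of all values in both lines. PRPH lost its call whichever array was left out, LMNA without either PC-3 array and BFSP1 likewise, so that 1 or 2 genes were then called lower.

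Of 67 genes of keratin-associated proteins, the matrix proteins of hair that surround hair keratins, 4 fell and none rose. The share lower was 5.97%, beside 14.7% of probe sets with 1 symbol and 11.6% of all. Of the 67 genes, 17 lay below the lower quartile in both lines, and 1.95% of all probe sets with a mean under 5 were called lower. This list was added after values were seen. KRTAP20-2 averaged 5.89 in PC-3-BM and 6.87 in PC-3 (difference −0.97, SE 0.07, limma, adjusted p = 0.00247). The other 3, KRTAP1-4, KRTAP4-4 and KRTAP4-2, lie between the type I keratins on chromosome 17 and fell by 0.54, 0.40 and 0.37 (SE 0.11, 0.08 and 0.07). KRTAP20-2 was the only one of the 4 that kept its call whichever array was left out, KRTAP1-4 kept it only without PC-3 array 2, and genes of this family share sequence that probe sets could read in common. Of 12 cornification genes, which build the outer skin layer together with keratins, 4 fell (33.3%, beside 14.7% of probe sets with 1 symbol) and none rose, with a median of −0.09. Leaving out single arrays left 1 or 2 of them. The largest difference was that of stratifin (SFN, −0.94, SE 0.07). The others were CSTA (−0.50, SE 0.07), CDSN (−0.45, SE 0.10) and CNFN (−0.36, SE 0.08), and these 3 lost their calls whichever array was left out.

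**Figure D4:**
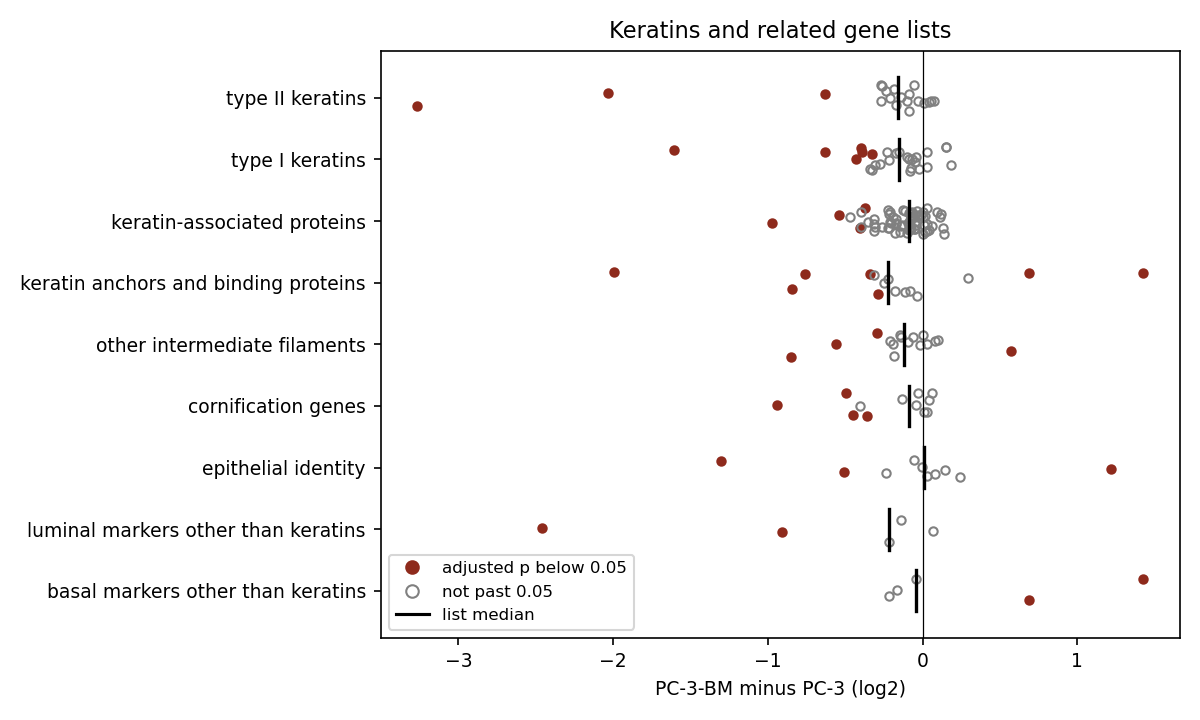
Difference between PC-3-BM and PC-3 (log2, horizontal axis) of each measured gene of 9 lists (vertical axis). Dark red dots have an adjusted p below 0.05, open dots do not, and black bars are list medians, which are −0.16 and −0.15 for type II and type I keratins and −0.22 for luminal markers other than keratins. KRT75 and KRT8 were chosen by their difference, so their colour is no test.

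Both lines were also examined for markers of prostate epithelium. KRT8, KRT18 and KRT19 are themselves luminal markers and were left out of the count. Of the 5 others measured, 2 fell (40%, beside 14.7% of probe sets with 1 symbol) and none rose. The prostate transcription factor HOXB13 averaged 9.44 in PC-3-BM and 10.35 in PC-3 (difference −0.91, SE 0.07), and FOXA1, a pioneer factor of luminal cells, averaged 6.82 in PC-3-BM and 9.28 in PC-3 (difference −2.46, SE 0.19). The secreted luminal products KLK3 and KLK2 did not pass and lay below the median of all values, with means of 5.86 for KLK3 and 5.84 for KLK2 in PC-3-BM and of 5.79 and 5.98 in PC-3. Of 5 basal markers other than keratins none was called lower, and ITGA6 and DST, named above, rose (40%, beside 14.6% of probe sets with 1 symbol). The other 3 did not pass and had negative differences (NGFR −0.17, CD44 −0.05 and TRIM29 −0.22). The median of these basal markers was −0.05, so the list did not move in 1 direction. Among 10 epithelial genes, 2 fell and 1 rose, shares of 20% and 10%, beside 14.7% and 14.6% of probe sets with 1 symbol. EPCAM, an adhesion molecule of epithelia, fell by 1.30 (SE 0.09) and the splicing regulator ESRP2 fell by 0.50 (SE 0.07), while the epithelial transcription factor ELF3 rose by 1.22 (SE 0.12). ESRP2 kept its call only without PC-3-BM array 2.

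Markers of marrow cells were measured beside the keratins, since PC-3-BM came from flushed bone. By the methods the harvest was put under geneticin and sorted for green fluorescent protein. The host was a mouse and the probe sets are human, so these lists cannot show whether host cells were present. Of 7 blood cell markers none was lower and CD68, a lysosomal protein of macrophages and other cells, rose by 0.72 (SE 0.07). This share of 14.3% was near the 14.6% called higher among probe sets with 1 symbol. The leukocyte marker PTPRC was below the lower quartile of all values, at 3.93 and 4.05 in PC-3-BM and 3.81 and 3.70 in PC-3 (difference 0.24, limma, adjusted p = 0.111). When probe sets with 1 symbol alone were tested, 2 of the 7 were called higher. The mean log2 level of the list was 5.82 to 5.85 on the PC-3-BM arrays and 5.74 to 5.78 on the PC-3 arrays. Of 8 stromal and endothelial markers PECAM1 rose by 0.45 (SE 0.07), a call lost whichever array was left out, and by 1.16 when its probe sets, which differed in size, were averaged. It was the only call, 12.5% of the list, also near the share called higher among probe sets with 1 symbol. The list lay at 6.43 to 6.44 on the PC-3-BM arrays and 6.44 to 6.47 on the PC-3 arrays. The part of such cells in the keratin differences was not tested.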

How the data were processed

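Total RNA of PC-3-BM and PC-3 cells (2 arrays each) was hybridised to Affymetrix Human Gene ST arrays. The authors corrected background, normalised and summarised the arrays by the robust multichip average (RMA), and deposited log2 expression values. limma 3.24 and R 3.2 are named in the submitters' processing notes. RMA gives no detection call and equalises distributions, so a shift of all transcripts in 1 line would not show. The 33297 probe sets were named from the platform annotation (19460 with 1 symbol, 1754 with several, 12083 with none).

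PC-3-BM was compared with PC-3 in limma 3.58.1 under R 4.3.3, with empirical Bayes moderation (2.88 prior and 2 residual degrees of freedom) and p-values adjusted by Benjamini-Hochberg across every probe set, called at an adjusted p below 0.05. The fit was tested on simulated data. The number of arrays limits the precision. The arrays of different lines correlated at 0.983 to 0.985 and those of a line at 0.996 to 0.997 across probe sets. The members and lists were chosen with earlier results of these data known. Named genes were the members, every other keratin called, called anchors and filament genes, up to 4 called genes of each other list, and flanking genes. Centring, renormalisation, brightness filters, features tested, variance models, a replicate block, probe set averaging, left-out arrays and the thresholds of the study were tried as alternatives. Sequences are from RefSeq (GRCh38.p14).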

Additional observations from a re-analysis of the deposited data

How the results depend on the processing

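With single arrays left out, 2238 to 3854 probe sets were called in place of 7717, 4 to 5 keratins were lower in place of 9, and 0 to 1 of the 7 members other than KRT75 and KRT8 in place of 4. At the thresholds of the study the counts in this fit were 17, 1 and 0, both thresholds being stricter. The paper reports a longer list of genes at its thresholds than this fit called, and the reason was not tested. The 1 keratin in this fit was KRT75, which was chosen by its difference, so its passing is no test. KRT75 and KRT8 were chosen by their difference, and both are in the other counts of lower keratins in this section. No keratin was called higher in limma on 4 arrays or in any of the 14 alternatives, and none had a positive difference at an unadjusted p below 0.05 in limma. The differences of the 12 keratins with values above were negative in each alternative that tested them. KRT75 ranged from −3.29 to −3.23, KRT8 from −2.14 to −1.92 and KRT37 from −1.82 to −1.39. With probe sets of 1 gene symbol alone, KRT5 and KRT15 passed (limma, adjusted p = 0.0225 and 0.0408) and 13 keratins were lower. With arrays centred on their medians KRT19 did not pass (limma, adjusted p = 0.067, and 0.0118 to 0.178 over its alternatives).

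Arrays of the lines share numbers in the labels, and the correlation of deviations between same-numbered arrays was −0.02 across probe sets, so the numbers were not taken as pairs. With a replicate block, 6473 probe sets were called, 7 keratins and 2 of the 7 members were lower, and KRT18 and KRT19 did not pass (limma, adjusted p = 0.0592 and 0.0604). The cause of these shifts was not tested. With 2 arrays a line, small differences of dim keratins could not be resolved.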
